A study of Homo sapiens with 12 samples.

Results

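The 4 wild-type libraries of U251-APP cells were taken from the 12 libraries of the series, and all 11178 genes of the table were ranked in them by mean value. U251 is a human glioblastoma line that grows as adherent, astrocyte-derived tumor cells, and U251-APP is a derivative in which a mutant amyloid precursor protein (APP) with the substitutions K670N and M671L was stably introduced. The wild-type cells carry that APP but no deletion. The other 2 groups, 4 libraries each, carry the same APP and lack one of 2 binding sites of the chromatin protein CTCF, labelled A and B, and are called CTCF-A KO and CTCF-B KO here. The sites were removed with Cas9 and followed by single-cell cloning. The labels give the wild-type cells the same editing tag as the knockouts and do not say whether they were cloned, nor whether the replicates are separate cultures. The p-values below therefore describe the spread between libraries, some or all of which may be technical. All cells were grown in RPMI-1640 with 10% fetal bovine serum, and total RNA was sequenced as read pairs. The labels name no promoter for the APP transgene, and they do not say whether the libraries of a knockout come from 1 clone.

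Glioblastoma cell lines keep parts of the astrocyte program, such as intermediate filaments and SOX transcription factors, while they divide continuously and take on features of mesenchymal cells. Tumors of this kind are often sorted into proneural, classical and mesenchymal expression classes, the last of which is rich in matrix, adhesion and injury-response genes. A transcriptome of the unedited line shows which of these programs the cells use, and which receptors and metabolic enzymes are present before any site is removed.

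Values are given on 2 scales. The deposited value is a log2 normalized expression value, suited to comparing the same gene between libraries. The per-length level is the same value on the linear scale, divided by the summed exon length of the gene and scaled to 1000000 over all genes with a gene model in each library. It is used whenever levels of different genes are set side by side. The median gene had a deposited value of 9.29 and a per-length level of 24.6. A gene that is not among the 11178 is called not listed. The rule by which the authors chose the listed genes is not given in the sources used here, so a gene that is not listed is not shown to be silent. Of the 19951 protein-coding genes of the annotation (GENCODE 29), 50.6% were listed. Protein-coding genes outside the mitochondrial genome made up 94.9% of the linear sum, and the 487 long noncoding RNAs 0.467%.

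The wild-type libraries were close to each other. Pearson's r across genes was between 0.997 and 0.998 for the 6 pairs (genes are not independent replicates), and the median SD of a gene was 0.06 on the log2 scale. Expression was concentrated in few genes: the 10 highest held 6.87% to 7.05% of the summed linear values, the 100 highest held 21.6% to 22.0%, and 786 to 805 genes held 50% of it. In base composition WT replicate 3 lay lowest. Its genes of high GC content lay 0.12 below those of low GC content relative to the wild-type mean (log2), against differences between -0.02 and 0.08 in the other libraries. Sequencing depth is unknown, because the table holds no counts.

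By deposited value, which is not divided by gene length, actin, mitochondrial cytochrome oxidase and APP ranked highest. ACTB, the cytoskeletal beta-actin, had deposited values of 17.70, 17.68, 17.62 and 17.67 in WT replicates 1 to 4 and was first in every library (ENSG00000075624, chromosome 7, 5527147 to 5563784). MT-CO1, the mitochondrially encoded subunit I of cytochrome oxidase, had values of 17.44, 17.49, 17.47 and 17.54. APP had values of 17.22, 17.23, 17.15 and 17.16 and was the third in all 4 (ENSG00000142192, chromosome 21, 25880550 to 26171128, GRCh38). The table does not separate reads of the introduced APP from those of the cells' own gene. Following these were ACTG1 at 17.06 ± 0.03 (log2, mean ± SD, n = 4 here and throughout), the elongation factor EEF1A1 at 17.05 ± 0.01, the pyruvate kinase gene PKM at 16.72 ± 0.02, the actin crosslinker FLNA at 16.58 ± 0.03 and the ferritin light chain FTL at 16.31 ± 0.01. Also among the first 15 were MT-ND4, MT-CO2, MT-CO3, the annexin ANXA2, the mitochondrial ribosomal RNA MT-RNR2 and VIM, with means from 15.92 to 16.31. GFAP, the astrocyte intermediate filament, was the 19th at 15.68 ± 0.16.

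**Figure D1:**
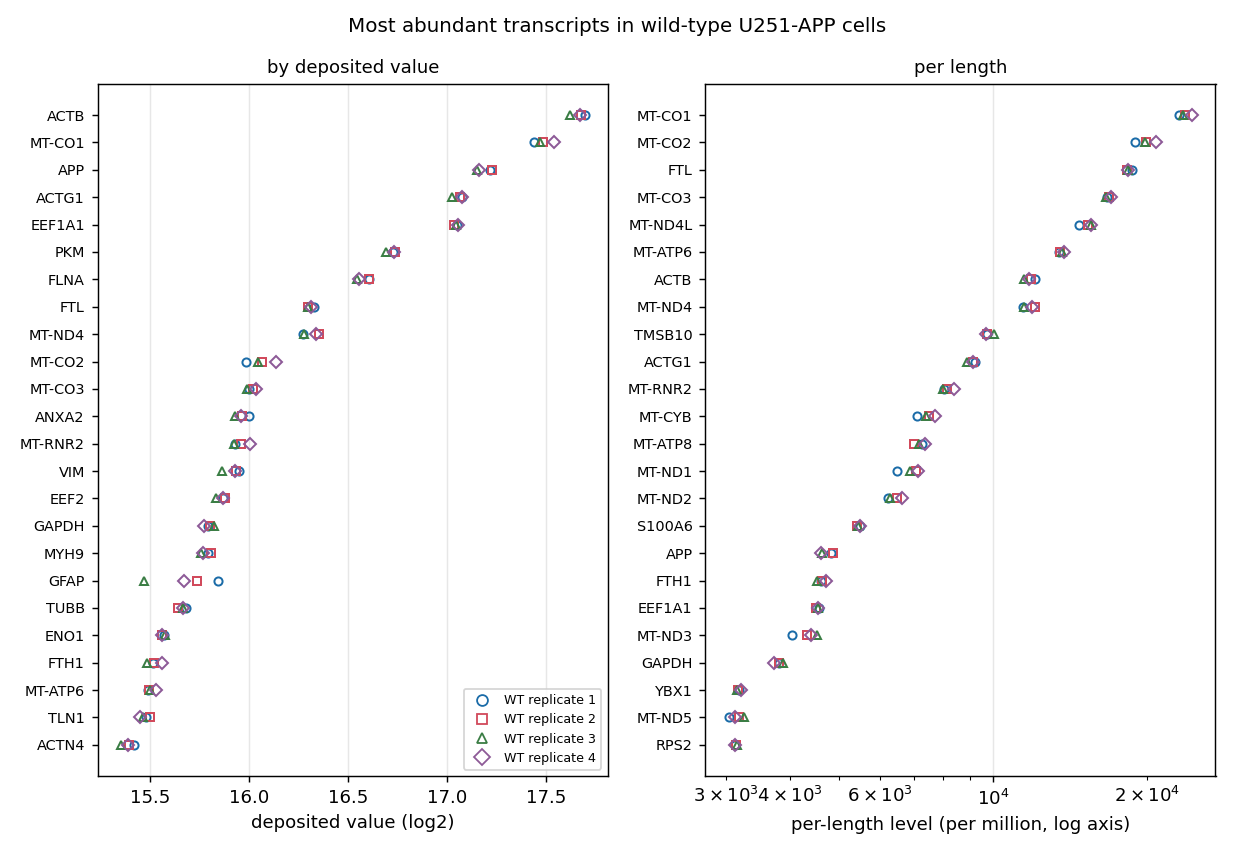
Shown are 24 of the 25 highest genes of wild-type U251-APP cells by deposited value (left, log2) and by per-length level (right, per 1000000, log axis), with 1 symbol per library. ACTB, MT-CO1 and APP lead on the left, while mitochondrial mRNAs and FTL lead on the right, and the 4 libraries of a gene mostly lie close together, with GFAP the widest on the left.

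Per length, the mitochondrial genome took the leading places. MT-CO1 stood at 23750 ± 612, MT-CO2 at 19902 ± 768, FTL at 18457 ± 193, MT-CO3 at 16807 ± 183, MT-ND4L at 15312 ± 375 and MT-ATP6 at 13594 ± 131. ACTB followed at 11804 ± 235, then MT-ND4, the actin-sequestering peptide gene TMSB10 at 9808 ± 156, ACTG1 at 9113 ± 138, MT-RNR2, MT-CYB, MT-ATP8, MT-ND1 and MT-ND2. The 13 mitochondrial mRNAs together made up 13.5% to 14.3% of the per-length sum and 3.39% to 3.62% of the linear sum. The table names some of these genes by other symbols, COX1 for MT-CO1 for example, and they were found by their Ensembl identifiers. MT-ATP8, with 77.8% of its exon bases shared with no other gene, overlaps MT-ATP6, so their split is uncertain, and FTH1 has 37.6% of its exon bases to itself. Among nuclear genes after FTL, ACTB, TMSB10 and ACTG1 came the calcium-binding S100A6 at 5455 ± 42.0, APP at 4728 ± 127, the ferritin heavy chain FTH1 at 4619 ± 77.4 and EEF1A1 at 4542 ± 27.1. These levels depend on the length assigned to a gene. With the longest transcript in place of all exons, 1002 genes moved by more than 1.5 times, among them PKM from 2517 to 5318, and 81 of the 100 highest genes were the same.

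The promoters of the most abundant genes were examined for the TATA box, the element that positions the transcription machinery at a minority of human genes. The letters TATAAA were searched on both strands between 45 and 15 bases before the RefSeq start (GRCh38.p14). Apart from the set of all promoters, only listed nuclear protein-coding genes with an entry in the RefSeq promoter table entered, with 1 promoter each. Of the 200 highest such genes per length, 16 (8%) held the motif on the gene's strand, against 1.44% of the next 1800, 1.00% of the 6180 lower genes and 2.39% of all 35116 promoters of the table. On the other strand the shares were 3%, 0.389%, 0.356% and 0.803%. The set of all promoters was not limited to listed protein-coding genes or to 1 promoter per gene, so its share is of an unlike set. The 16 genes were EEF2, CALR, PPIA, ANXA2, SLC25A5, ID1, UBE2S, RPLP0, P4HB, DKK1, HNRNPAB, MT2A, TUBB2A, ANXA1, TXN and RPS28. The window was chosen with these data at hand, and no test was made of the difference. Each line below gives the 60 bases before the start, 5′ to 3′ on the gene's strand, with the motif in capitals. ID1, an inhibitor of basic helix-loop-helix factors (chr20:31605229-31605288, plus strand), DKK1, a secreted Wnt inhibitor (chr10:52314221-52314280, plus strand), MT2A, a metallothionein (chr16:56608524-56608583, plus strand), and ANXA2 (chr15:60397987-60398046, minus strand) show the motif. FTL (chr19:48965249-48965308, plus strand) and SOX2 (chr3:181711865-181711924, plus strand) are shown for comparison, without a match in the window, which says only that these letters are not in it.
ID1: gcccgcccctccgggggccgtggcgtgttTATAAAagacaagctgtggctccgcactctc
DKK1: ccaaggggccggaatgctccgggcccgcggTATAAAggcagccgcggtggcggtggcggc
MT2A: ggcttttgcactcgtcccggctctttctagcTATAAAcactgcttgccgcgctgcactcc
ANXA2: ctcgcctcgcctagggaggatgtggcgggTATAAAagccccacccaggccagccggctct
FTL: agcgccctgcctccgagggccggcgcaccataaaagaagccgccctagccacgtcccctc
SOX2: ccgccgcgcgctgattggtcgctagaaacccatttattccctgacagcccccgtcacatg

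The glial genes of the line were a part of the astrocyte set. Of 20 astrocyte and radial glia genes looked for, 8 were listed, with a median per-length level of 176 against 24.6 over all genes. VIM, the intermediate filament of radial glia and mesenchymal cells, stood at 2395 ± 59.5 per length. GFAP had per-length levels of 972, 898, 750.3 and 855 in WT replicates 1 to 4, so that replicate 3 was the lowest and replicate 1 the highest, with a mean of 869 ± 92.6 (ENSG00000131095, chromosome 17, 44903161 to 44916937). The glial transcription factor SOX9 was at 258 ± 7.17, the gap junction protein GJA1 at 215 ± 5.27, the brain lipid-binding protein FABP7 at 136 ± 5.02, the secreted chaperone CLU at 75.5 ± 3.03, or 121 with the longest transcript, the glutamate transporter SLC1A3 at 43.6 ± 1.99 and NFIB at 38.2 ± 1.89. Defining genes of mature astrocytes were not listed, among them AQP4, ALDH1L1, SLC1A2, S100B, GLUL, APOE and NFIA. Whether these were expressed cannot be told from the table, while all 8 listed genes lay above the median of all genes.

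Stem and progenitor genes were mostly present, with 15 of 20 listed. ID1 (1329 ± 50.1 per length) and ID3 (1154 ± 36.8) were the highest, followed by CD44, the hyaluronan receptor, at 675 ± 3.92 and the matrix protein TNC at 605. SOX2, a factor of neural stem cells, had per-length levels of 609, 609, 571 and 591 and a mean of 595 ± 18.2 (ENSG00000181449). The 4 libraries lay within a narrow range, with replicate 3 the lowest. The progenitor filament gene NES varied more, with 558, 544, 403 and 453, lowest again in replicate 3, and a mean of 489.5 ± 74.0. PROM1 (CD133), MSI1, NTRK2, POU3F3 and FUT4 were not listed. Of the 20 SOX genes looked for, 10 were listed, SOX2 and SOX9 being followed by SOX4 (119.7 ± 6.5) and SOX12 (68.8 ± 2.89).

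Apart from fibroblast genes, given below, genes of other lineages were few. NEFL, the neurofilament light chain, was the exception among 15 neuronal genes: its per-length levels were 1898, 1836, 1750 and 1857, with a mean of 1835 ± 62.2 (ENSG00000277586). The other listed neuronal genes, MAP2, SYT1, SNAP25 and GAD1, had per-length levels of at most 11.9, and RBFOX3, TUBB3, NEFM, DCX, STMN2 and SYP were not listed. The oligodendrocyte list had 3 of 12, led by CNP at 160.0 ± 4.13 with UGT8 (14.6) and MYRF (4.93) far below it, and without MBP, SOX10 or OLIG2. None of 14 microglia and macrophage genes was listed, PTPRC, AIF1 and CD68 included. CD68 has only 14.2% of its exon bases to itself, and genes with under 20% were listed in 2.57% of cases. Single genes stood for the endothelial list (KDR, a VEGF receptor, at 38.0 ± 1.06), the epithelial list (KRT18 at 30.5 ± 1.13) and the lymphocyte list (IL7R at 50.3 ± 1.56), each of 10 genes, without PECAM1, VWF, EPCAM, CDH1 or CD3E. The melanocyte list had GPNMB (25.9 ± 1.38, or 40.6 with the longest transcript) and MITF (22.2 ± 1.61) of 8 genes and none of its pigment enzymes. The pericyte list had TAGLN (3.45) and KCNJ8 (2.63) of 10, without PDGFRB, ACTA2 or DES. Summed over its listed genes, the neuron list came to 1775 to 1921 per length in wild type and every list of endothelial, epithelial, melanocyte, lymphocyte or pericyte genes to at most 51.7. The oligodendrocyte list came to 176 to 184, and the fibroblast list to 861 to 931.

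Most genes of the mesenchymal glioblastoma class were listed. Of 20 mesenchymal class genes, 19 were listed with a median per-length level of 278, of 12 proneural genes 6 were listed with a median of 32.3, and of 11 classical genes 8 were listed with a median of 43.3. These class lists are short and hand-picked, and no test was made between them. S100A6, the lectin LGALS1 (3091 ± 90.4) and the collagen-binding SPARC (1626 ± 41.6) were among the highest of the mesenchymal list, and CHI3L1, a marker often used for this class, was its member that was not listed. SOX2 led the proneural list, with SOX4 and the receptor PDGFRA (48.0 ± 1.67) next and NCAM1 (16.7, or 26.2 with the longest transcript) below, and OLIG2, SOX11, DCX and ERBB3 not listed. NES and the receptor EGFR led the classical list, followed by JAG1 (55.4) and AKT2 (50.9, or 107 with the longest transcript), with NOTCH3, GAS1 and GLI2 not listed. Fibroblast markers were mixed, with 7 of 12 listed. COL1A2 stood at 569 ± 17.2, THY1 at 168 ± 10.2 and TWIST1, a factor of epithelial-mesenchymal transition, at 57.4 ± 2.61, whereas COL3A1, LUM, DCN, FAP and POSTN were not listed.

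**Figure D2:**
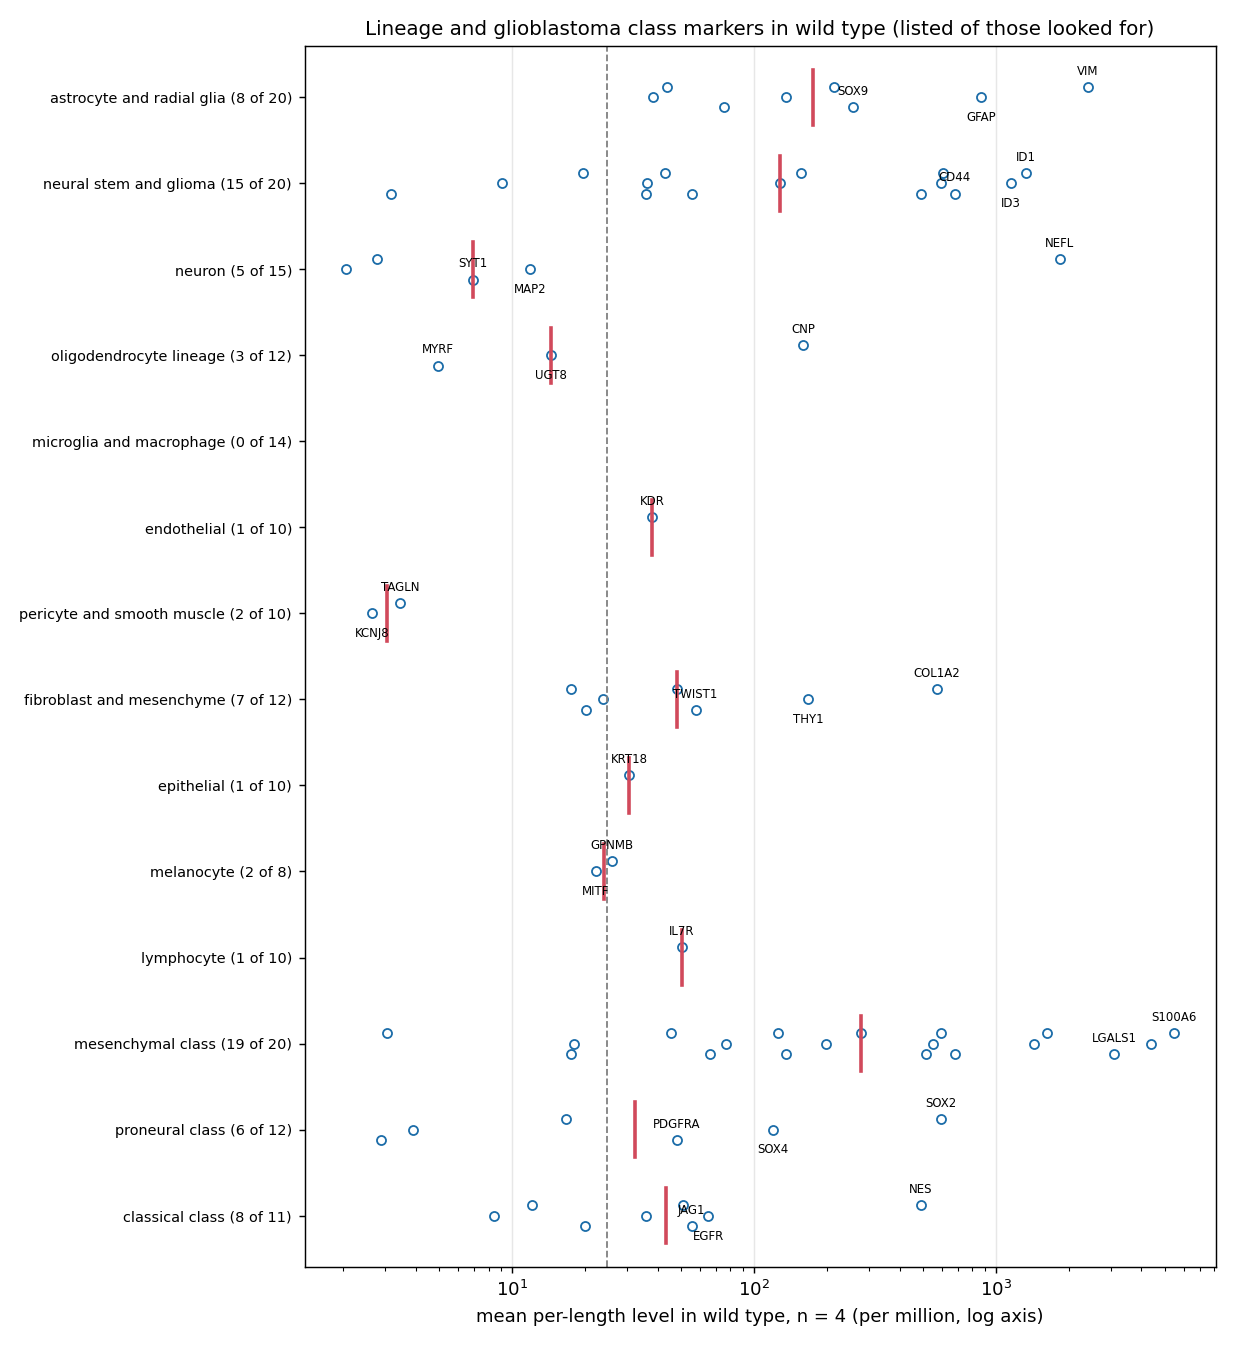
Per-length level (per 1000000, log axis, mean of 4 wild-type libraries) of every listed gene of 14 lineage and glioblastoma class lists, with the number listed of those looked for beside each name. The red bar is the list's median and the dashed line the median of all genes, 24.6. Astrocyte, stem and mesenchymal class genes lie mostly to the right of the line, NEFL is the only neuronal gene there, and the microglia row is empty.

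The matrix was led by SPARC and by matricellular proteins. CTGF (CCN2) and CYR61 (CCN1), both known targets of the YAP pathway, stood at 1389 ± 59.2 and 1052 ± 62.4 per length, above TNC and TGFBI (591 ± 11.8). FN1, the fibronectin gene, was at 45.6 ± 1.69. Of 44 collagen genes, 16 were listed. The chains of type I collagen were far apart: COL1A2 had per-length levels of 585, 572, 544 and 574, while COL1A1, the partner chain, had 21.3, 19.1, 19.5 and 20.9. No library of one chain came near the other. COL6A1 (338 ± 25.7), COL5A2 (241 ± 10.7) and COL6A2 (222 ± 15.4) followed COL1A2. The basement membrane list had 10 of 15 genes, led by the laminin chain LAMC1 (242 ± 4.76), AGRN, LAMB2 and LAMB1. Collagen-modifying enzymes were nearly complete with 17 of 19 listed, P4HB (874 ± 15.3, or 1324 with the longest transcript), LOXL2, CRTAP and COLGALT1 at the head.

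Matrix proteases and their inhibitors were listed in part. Among the highest were the urokinase gene PLAU at 403 ± 24.8, TIMP2 at 332 ± 15.1, TIMP1 at 278 ± 9.56, MMP14 at 169.8 ± 20.2 and MMP2 at 153 ± 5.68. Of the 53 genes looked for, 20 were listed. Among 26 integrin genes 11 were listed, with the laminin-binding ITGA3 (800.2 ± 6.82) and ITGB4 (765 ± 47.4) ahead of ITGB1 (382 ± 13.0), the common partner of alpha chains, and the others at or below 78.6, the level of ITGA5. ITGA6, the usual partner of ITGB4, was at 42.9 ± 1.77. Proteoglycans comprised 14 of 28, CD44, GPC4 (313 ± 3.18), SDC1 (199.7 ± 2.84) and GPC1 (127 ± 5.70) leading.

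Genes of the cytoskeleton were abundant. Of 34 actin and contractile genes 30 were listed, with a median per-length level of 589, and together they held 4.89% to 5.00% of the per-length sum. ACTB, TMSB10, ACTG1 and TMSB4X (2602 ± 42.5) led them. Tubulins comprised 14 of 24, led by TUBB (3083 ± 37.7), TUBA1B (1416 ± 47.5) and TUBB4B (1041 ± 10.5). Reads of near-identical actin and tubulin genes may have been split by the counting, so their individual levels are uncertain. Intermediate filaments were VIM, NEFL, GFAP, the lamins LMNA (512 ± 12.1, or 834 with the longest transcript), LMNB2 and LMNB1, NES, and a few keratins led by KRT80 (144 ± 4.06). KRT8, the usual partner of KRT18, was not listed.

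Most listed glycolytic genes lay above the median of all genes. Of 26 genes 22 were listed, with a median per-length level of 125, and 5 of them, LDHA, SLC2A3, LDHB, PDK1 and ENO3, lay below 24.6. GAPDH stood at 3809 ± 67.0 per length, PKM at 2517 ± 32.9, ENO1 at 1835 ± 17.8, or 2825 with the longest transcript, TPI1 at 1407 ± 32.2 and PGAM1 at 1048 ± 12.5. LDHA, the lactate dehydrogenase chain usually high in tumor cells, was at 17.6 ± 0.262, or 33.6 with the longest transcript, with per-length levels of 17.9, 17.4, 17.5 and 17.4, LDHB was at 4.42 ± 0.304, and ALDOA, the main aldolase, just above the median of all genes at 26.3 ± 0.879. The glucose transporter SLC2A3 was at 15.8 ± 0.788, the pyruvate dehydrogenase kinase PDK1 at 4.25 ± 0.160 and the enolase ENO3 at 3.53 ± 0.298, or 7.41 with the longest transcript. ALDOC was not listed. SDHA, a subunit of succinate dehydrogenase, was likewise low at 4.71 ± 0.256, or 9.77 with the longest transcript, while SDHB was at 206 ± 2.92, or 326 with the longest transcript. LDHA, LDHB and ALDOA have 6, 3 and 2 annotated pseudogenes with their name, of which none was listed, and GAPDH has 62, of which 2 were listed. SDHA has 3, of which 1 was listed. Whether reads shared with such copies were left uncounted was not tested, so these low levels are uncertain.

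**Figure D3:**
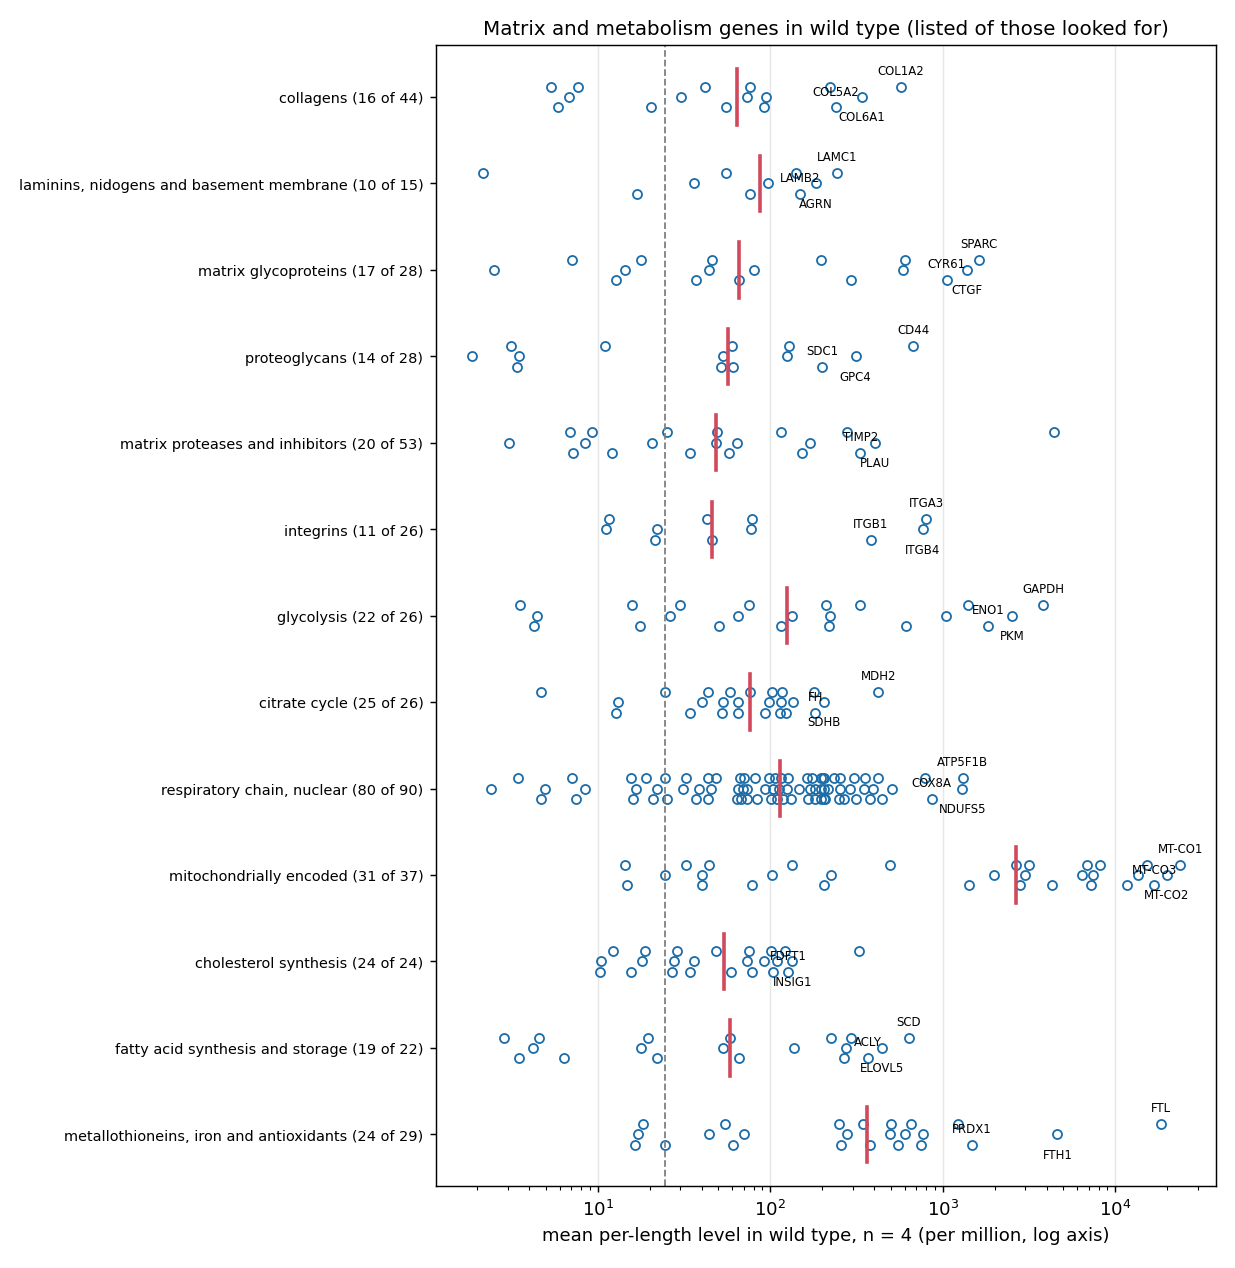
Per-length level (per 1000000, log axis, mean of 4 wild-type libraries) of every listed gene of 13 matrix and metabolism lists, with the number listed of those looked for. The red bar is the list's median and the dashed line the median of all genes, 24.6. The mitochondrially encoded genes have a median of 2665, and FTL and COL1A2 lead their lists.

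Oxidative and biosynthetic enzymes were nearly all listed. The citrate cycle had 25 of 26 genes with a median of 75.8, led by MDH2 (422 ± 7.47), and the nuclear respiratory chain had 80 of 90 with a median of 114, led by ATP5F1B (1308 ± 9.76), NDUFS5 (1300 ± 24.7), COX8A and NDUFB7. All 24 cholesterol synthesis genes were listed with a median of 53.8, with INSIG1 (134), FDFT1 (126) and PMVK (121) among the highest. Fatty acid synthesis comprised 19 of 22, led by the desaturase SCD with per-length levels of 654, 633, 540.0 and 721 (637 ± 74.7), ELOVL5 (443 ± 7.54), ACLY (368 ± 5.35) and FASN (291 ± 11.8). The pentose phosphate enzyme TKT (706 ± 28.3), the serine pathway enzyme PHGDH (278 ± 2.33, or 598 with the longest transcript) and the mitochondrial aminotransferase GOT2 (273 ± 2.83) led their lists, the last ahead of the glutamine transporter SLC1A5 (244 ± 3.83). GLUL and ASNS were not listed. Iron and antioxidant genes (24 of 29, median 362) were led by FTL, FTH1, PRDX1 (1472 ± 37.2) and GPX1 (1221 ± 13.9).

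Translation and proliferation genes were present in nearly full sets. Of 86 cytosolic ribosomal protein genes 81 were listed, with a median per-length level of 461 and 5.32% to 5.50% of the per-length sum, RPS2, RPS12, RPL41 and RPL13A being the highest. RPS2P5, a pseudogene of RPS2, was itself at 2686 ± 67.7, near RPS2 at 3141 ± 13.7, so the level of either is uncertain. Of 35 proliferation genes 34 were listed, with a median of 149, led by CDC20 (447 ± 4.24), TK1 (422 ± 9.28), UBE2C (406 ± 6.57) and CCNB1 (395 ± 11.2). In 6 families that dividing cells need, among them the proteasome, RNA polymerase II and the chaperonin, 167 of 172 annotated genes were listed. RPS10 and RPL36A were among the 5 that were not. Protein-coding genes with under 20% of their exon bases to themselves were listed in 2.57% of cases, against 52.6% of those with at least 80%.

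Receptor tyrosine kinases numbered 25 of 58 looked for. AXL, the receptor of GAS6, had per-length levels of 445, 455, 476 and 451 (457 ± 13.4), and EPHA2, an ephrin receptor, had 430.2, 398, 388 and 421 (409 ± 19.8). All 4 AXL libraries lay above all 4 of EPHA2. EPHA3 (158 ± 5.89), DDR1 (131 ± 8.64), MET (126 ± 8.58), PTK7 (94.2 ± 4.39) and EPHB4 (82.6 ± 4.60) followed, and the ranges of DDR1 and MET overlapped. IGF1R (67.4 ± 2.03) and EGFR, with 63.3, 63.8, 69.0 and 63.3 (64.8 ± 2.78), overlapped too, as did PDGFRA (48.0 ± 1.67) with FGFR1 (45.5 ± 1.80), and KDR with LMTK2 (36.7 ± 1.35). Below these came ERBB2 (29.6 ± 1.06), RYK (24.7 ± 0.805), FGFR3 (20.1 ± 1.50), TYRO3 (14.8 ± 0.67) and EPHB2 (12.5 ± 0.211). EPHB3, EPHA5, DDR2, INSR, EPHA4, MERTK and STYK1 lay between 2.66 and 7.87, with overlapping ranges among EPHB3, EPHA5 and DDR2 and between MERTK and STYK1. With the longest transcript, DDR1 moved to 215, FGFR1 to 75.3 and ERBB2 to 46.1, each by more than 1.5 times, while AXL stayed first at 369.5. ERBB3, ERBB4, PDGFRB, KIT and NTRK2 were not listed.

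**Figure D4:**
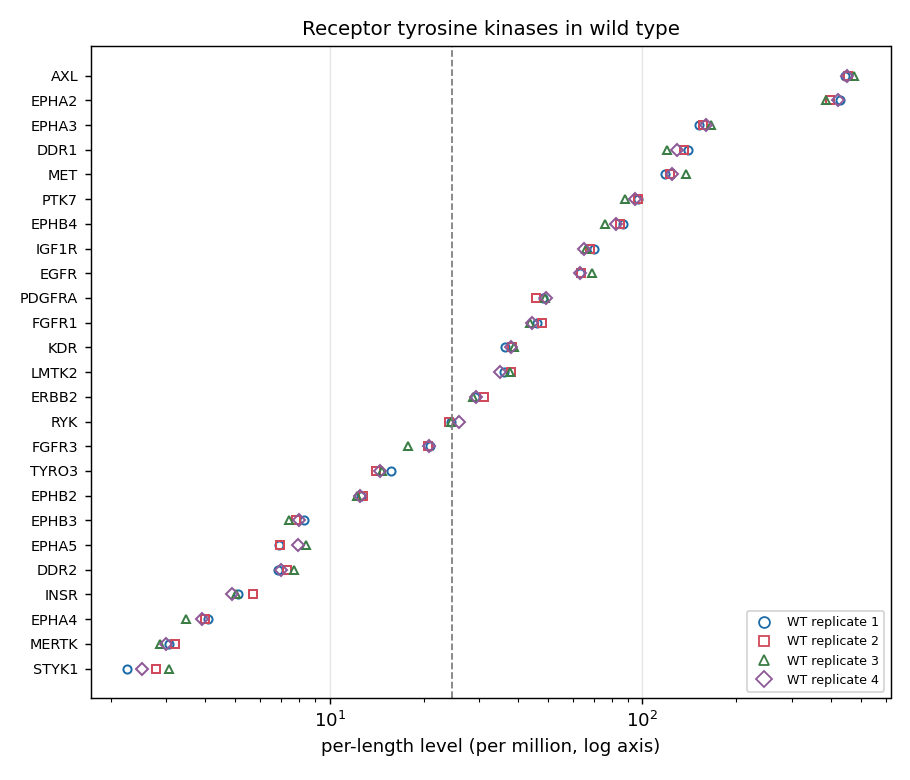
Per-length level (per 1000000, log axis) of the 25 listed receptor tyrosine kinases in the 4 wild-type libraries, ordered by mean, with the median of all genes (24.6) dashed. AXL and EPHA2 stand above EPHA3, and EGFR is ninth at 64.8.

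Other receptors and their ligands gave a selective picture. The cytokine receptor list had 21 of 49, led by TNFRSF12A (875 ± 11.6), the receptor of TWEAK, and by IL13RA2 (196 ± 9.16), a decoy receptor known as a glioma antigen. Growth factor ligands comprised 16 of 37, led by PTN (281 ± 7.60), MDK (201 ± 8.90) and VEGFB (159 ± 7.83), and GAS6, the AXL ligand, was at 25.7 ± 1.53, or 43.4 with the longest transcript. TGFB1 stood at 384 ± 12.9 and its receptor TGFBR2 at 151 ± 3.77. NOTCH2 (226 ± 6.77) led the Notch list and DKK1 (741 ± 17.1) the Wnt list. Of 26 glutamate receptor genes only GRIK4 was listed, at 4.27, and of 21 GABA receptor genes 4 were, led by GABRA3. Of 110 cytokine and chemokine genes 13 were listed, IL18 (90.6 ± 2.38), CCL2, LIF and CXCL8 at the head. The antigen presentation genes of class I were listed in 12 of 13 cases, B2M being at 608 ± 5.75, or 1143 with the longest transcript, and those of class II in 0 of 10. Among immune surface genes the TNF family ligand CD70 (666 ± 23.9) was the highest. HLA class I genes share sequence, so the split among them is uncertain.

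Of 30 genes that are commonly altered in glioblastoma, 21 were listed and none was among the highest 10% of genes. CCND1 (126 ± 6.98), MET (126 ± 8.58), CDK4 (121 ± 3.68), IDH1 (98.5 ± 2.94) and DAXX (88.0 ± 1.50) were among the highest. CDKN1A (64.9), EGFR, QKI (58.1), IDH2 (52.8), PDGFRA, RB1 (42.3), MYC (40.7), CDK6 (35.5) and MTAP (29.5) lay above the median of all genes. PPM1D (13.7), MDM2 (13.4), PIK3CA (11.9), PIK3R1 (10.4) and MDM4 (6.46) lay below it. CDKN2A, CDKN2B, CDKN2C, CCND2, NF1, ATRX, TERT, MGMT and MYCN were not listed. MTAP, the genomic neighbor of CDKN2A, was listed although CDKN2A and CDKN2B were not. NF1 and ATRX have 98.9% and 100% of their exon bases to themselves.

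APP stood far above its relatives and processing enzymes. Its per-length levels were 4819, 4854, 4624 and 4613, against 599 ± 14.0 for APLP2 and 49.1 ± 3.84 for APLP1, its homologs. With the longest transcript the level of APP was 6266. These levels of APP join reads of the introduced APP with those of the cells' own gene. Of 29 genes of APP processing 26 were listed, ITM2C (352) and the protease ADAM9 (294) following APP and APLP2. The beta-secretase BACE1 was at 46.1 ± 2.31. Gamma-secretase subunits included APH1A at 178 ± 3.74, NCSTN at 166 ± 6.42, PSEN2 at 32.3 ± 0.563 and PSENEN at 21.0 ± 0.927, and the alpha-secretase ADAM10 was at 18.5 ± 1.43. MAPT, the tau gene, and MME were not listed.

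Transcription factors and remaining families were listed in part. Of 40 HOX genes 23 were listed, from HOXB3 (114 ± 4.64) and HOXB7 (91.1) through HOXC10 (61.0) and HOXD10 (37.7) to lower members, with a median of 13.9. Immediate early and AP-1 genes were led by JUN (313 ± 16.1), JUND (309 ± 28.3) and FOSL1 (193 ± 6.06), with FOSL2 (88.3) next. FOSL1 also led the regulators known from mesenchymal glioblastoma, ahead of BHLHE40 (139.5), STAT3 (113) and CEBPB (108), 22 of 24 listed. Nuclear receptors were 24 of 46, NR1H2 (131), PPARD (109), NR2F2 (103) and NR2F1 (73.1) at the head. Among adhesion and guidance receptors NRP2 (197 ± 3.83, or 306 with the longest transcript), CDH4 (159), PLXNB2 (135) and the N-cadherin gene CDH2 (115) were highest. Chaperones were nearly complete with 26 of 27 and a median of 345, HSPB1 (2417 ± 35.0), HSP90AB1 (2357 ± 9.06), CALR (1993 ± 32.8) and HSPA8 (1239 ± 19.1) leading. Of the long noncoding RNAs looked for 17 of 25 were listed, NORAD (233 ± 8.62) first and the snoRNA host genes SNHG6 (143), SNHG8 (56.9) and GAS5 (55.1, or 87.6 with the longest transcript) after it.

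In most of the genes that varied most between wild-type replicates, replicate 3 was at an end of the range. Among the 5589 genes above the median, 19 had an SD over 0.25. Of the 10 with the largest SD, replicate 3 was the highest in 7 (KTN1, DST, SMC4, CHD9, SMCHD1, IL6ST and STAG2, with a GC content of 35.8% to 41.3%) and the lowest in 2 (SEC14L1 and CENPB, 52.3% and 66.2%). KTN1, a kinesin receptor, had deposited values of 9.72, 9.37, 10.28 and 9.32, and CENPB, a centromere protein, had 11.29, 11.31, 10.64 and 10.93. BRI3 stood apart from these, with 10.38, 11.05, 10.27 and 10.25, highest in replicate 2. The GC difference of replicate 3 given above moves with these genes, and its part in them was not tested.

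Wild type was then set against each knockout, which asks whether the leading genes of the unedited cells stand at other levels there. The 2 comparisons share the 4 wild-type libraries. Over all 11128 genes tested with limma, 62.9% differed from CTCF-A KO and 39.4% from CTCF-B KO at a Benjamini-Hochberg adjusted p under 0.05. By direction, 31.1% were higher and 31.8% lower in wild type than in CTCF-A KO, and 20.6% were higher and 18.9% lower than in CTCF-B KO. The fit shares its estimate of the spread over all 12 libraries. With only the 8 libraries compared, 6144 genes differed from CTCF-A KO and 6601 from CTCF-B KO, against 7002 and 4389. Which knockout differed in more genes therefore depended on the libraries in the fit. The 200 highest genes per length were chosen by their wild-type level, which these comparisons use again, so their counts are a description. Of them, 31 were higher and 116 lower in wild type than in CTCF-A KO, with a median difference of -0.20 (log2) against -0.0049 over all genes, and 80 were higher and 24 lower than in CTCF-B KO, with a median of 0.08 against -0.0016. When the 200 genes were instead ranked by the knockout that was not compared, a choice made after seeing the data, 26 were higher and 117 lower than in CTCF-A KO (median -0.20), and 71 higher and 27 lower than in CTCF-B KO (median 0.07). The splits of the genes ranked by wild type depended on scaling. With quantile normalization the counts were 66 and 89 against CTCF-A KO and 57 and 73 against CTCF-B KO, where the balance turned. With a trend over GC content and length removed they were 56 and 91, and 95 and 35. CTCF-A KO replicates 1 to 3 had a GC difference of 0.45 to 0.91 on the measure given above, and CTCF-A KO replicate 4 one of 0.09.

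Among the 200 highest genes, GFAP and SCD were the only ones at least 2-fold higher in wild type than in both knockouts with adjusted p under 0.05 and no overlap, and none was 2-fold lower than in both. The share of all genes that meet this joint rule was not counted. Taking each knockout alone, with no condition on overlap, 1.29% of all genes were 2-fold higher and 0.944% 2-fold lower than in CTCF-A KO. Against CTCF-B KO these shares were 1.04% and 0.377%. On the same measure, of the 200 highest genes 3 were higher and 1 lower than in CTCF-A KO, and 6 and 0 than in CTCF-B KO. GFAP had deposited values of 15.85, 15.74, 15.47 and 15.67 in wild type, against 12.51 to 12.69 among the CTCF-A KO libraries and 12.77 to 12.87 among those of CTCF-B KO. All wild-type libraries lay far above both other groups. The differences were 3.11 ± 0.07 and 2.85 ± 0.07 (log2, SE). SCD had values of 14.10, 14.05, 13.82 and 14.25 in wild type, with 12.39 to 12.64 for CTCF-A KO and 11.26 to 11.48 for CTCF-B KO. The groups did not overlap, and the differences were 1.53 ± 0.09 and 2.65 ± 0.09 (log2, SE). Both genes were chosen by their wild-type level and by these differences, so the values describe them and test nothing. APP, at 15.75 to 15.85 among CTCF-A KO and 16.49 to 16.56 among CTCF-B KO libraries, was 1.40 ± 0.03 and 0.66 ± 0.03 higher in wild type (log2, SE, adjusted p = 6.62e-12 and 5.23e-09 with limma), also without overlap. With quantile normalization the differences of APP were 1.75 and 0.42 (adjusted p = 1.83e-09 and 0.000637). Reads of the introduced APP and of the cells' own gene are not separated, so these are differences of both together. The part of each was not tested.

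**Figure D5:**
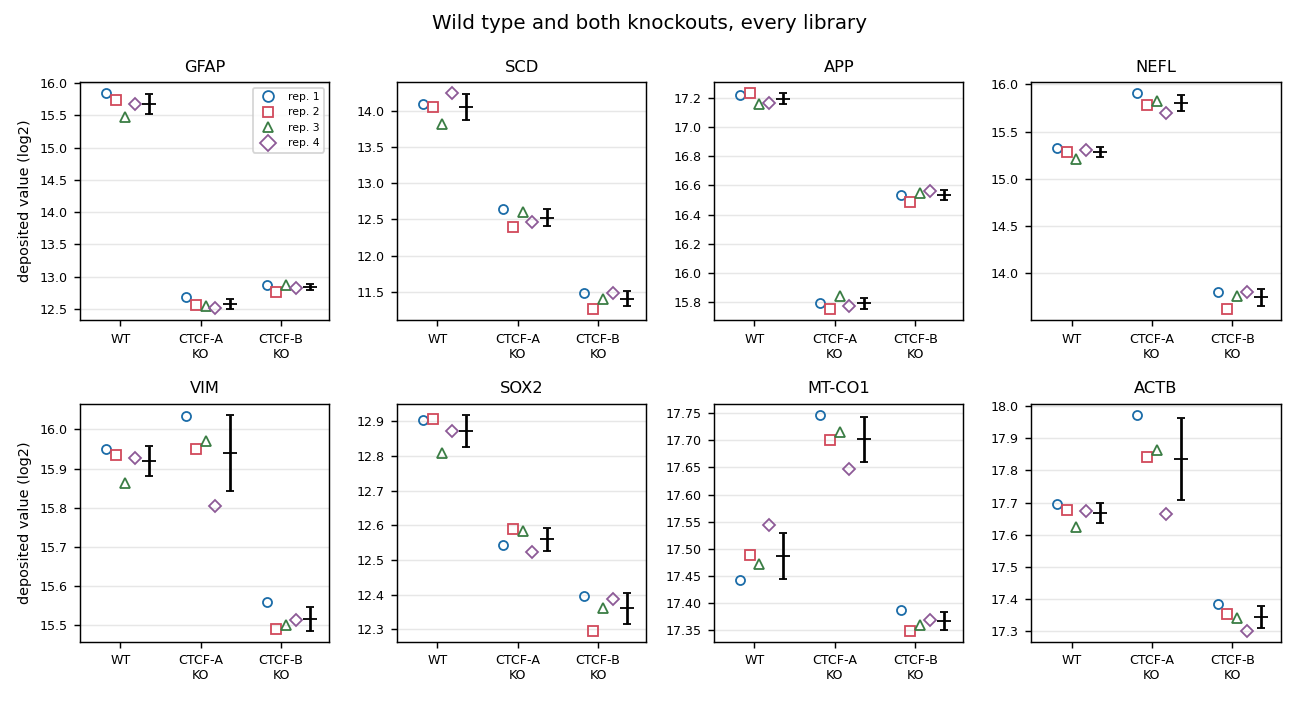
Deposited values (log2) of 8 genes in every library of the 3 groups, wild type and both knockouts, with the mean and SD of each group in black beside the points; the axes do not start at 0 and differ between panels. Wild type is highest without overlap for GFAP, SCD, APP and SOX2, lies between the knockouts for NEFL and, on the deposited scale only, for MT-CO1, and overlaps CTCF-A KO for VIM and ACTB.

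The lineage genes of wild type differed from the knockouts in part. Over all genes tested, 62.9% differed from CTCF-A KO, 31.1% being higher and 31.8% lower in wild type. Against CTCF-B KO 39.4% differed, with 20.6% higher and 18.9% lower. The 5 of 8 astrocyte genes that differed from CTCF-A KO are near the share over all genes, though all in 1 direction. Of the 8 astrocyte genes tested, 5 were higher and 0 lower in wild type than in CTCF-A KO (median 0.80, log2), and 6 were higher and 0 lower than in CTCF-B KO (median 0.43). Their summed per-length level was 3826 to 4204 in wild type. It was 2744 to 2756 for CTCF-A KO and 2567 to 2661 for CTCF-B KO. GFAP (869 ± 92.6 per length in wild type), chosen above by its difference from both knockouts, is among these 8 genes. The sum therefore repeats that difference in part, as do the counts of these 8. VIM, the highest of them, differed by -0.02 ± 0.04 from CTCF-A KO (adjusted p = 0.696 with limma) and was 0.40 ± 0.04 above CTCF-B KO. With quantile normalization VIM was 0.139 higher than in CTCF-A KO (adjusted p = 0.000131) and 0.233 higher than in CTCF-B KO. SOX2 was higher in wild type by 0.31 ± 0.04 and 0.51 ± 0.04, and all 4 wild-type libraries lay above the others. VIM and SOX2 were named for their wild-type levels, which these comparisons use again. Of the 10 SOX genes, 7 were higher and 0 lower than in CTCF-A KO (4 and 0 without WT replicate 2), and 9 were higher and 1 lower than in CTCF-B KO. NEFL went in opposite directions, with a difference of -0.52 ± 0.05 from CTCF-A KO and 1.54 ± 0.05 from CTCF-B KO (adjusted p = 3.12e-06 and 2.83e-10 with limma). With quantile normalization NEFL differed by -0.17 from CTCF-A KO (adjusted p = 0.00436) and by 1.52 from CTCF-B KO. NEFL was named for its wild-type level within the neuron list, which these comparisons use again. Of 19 mesenchymal class genes tested, 3 were higher and 13 lower than in CTCF-A KO, and 10 higher and 4 lower than in CTCF-B KO. Of these 19, 11 were among the highest 10% of genes per length. The 200 highest genes split in the same directions, 31 higher and 116 lower, and 80 and 24. Those splits depended on scaling, and whether the class goes beyond them was not tested. Levels of markers of other cell types are given beside these counts. The summed melanocyte genes were 47.3 to 48.8 in wild type, 161 to 188 for CTCF-A KO and 23.5 to 25.1 for CTCF-B KO, and KDR, the listed endothelial gene, was 36.5 to 38.9, 13.0 to 18.6 and 20.8 to 23.0 (per length). The defining genes PMEL, TYR, PECAM1 and VWF were not listed, and the part of these genes in the results was not tested. All 16 collagens were higher in wild type than in CTCF-B KO (median 0.38), as were 13 with quantile normalization, whereas 4 were higher and 7 lower than in CTCF-A KO.

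Most cholesterol synthesis genes were higher in wild type than in either knockout. Over all genes tested, 31.1% were higher and 31.8% lower than in CTCF-A KO, and 20.6% and 18.9% than in CTCF-B KO. Against CTCF-A KO 16 of the 24 cholesterol genes were higher and 1 was lower (median 0.33, log2). Against CTCF-B KO 21 were higher and 0 lower (median 0.53). INSIG1, a sterol-responsive regulator, was higher by 1.12 ± 0.06 and 1.69 ± 0.06 (adjusted p = 9.70e-09 and 2.83e-10 with limma). It was named for its wild-type level within its list, which these comparisons use again. With quantile normalization the counts were 16 and 1, and 20 and 0, and without CTCF-A KO replicate 4 the number lower than in CTCF-A KO was 4. Mitochondrial mRNAs were lower than in CTCF-A KO in 13 of 13 cases (median -0.31), but with quantile normalization in 3, with 2 higher. Against CTCF-B KO 5 were higher and 4 lower, and with quantile normalization 0 and 7. Of 81 cytosolic ribosomal protein genes tested, 6 were higher and 54 lower than in CTCF-A KO (12 and 42 with quantile normalization). Against CTCF-B KO 8 were higher and 5 lower, becoming 5 and 34 with quantile normalization and 16 and 21 without CTCF-A KO replicate 4. Of 25 receptor tyrosine kinases tested, 11 were higher and 8 lower than in CTCF-A KO, and 15 higher and 2 lower than in CTCF-B KO. With the trend over GC content and length removed, 4 were lower than in CTCF-B KO. The HLA class I and peptide loading genes counted 0 higher and 10 of 12 lower against CTCF-A KO, with a median of -0.93, and 2 higher and 3 lower against CTCF-B KO.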

How the data were processed

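Gene expression was measured by RNA-seq in 12 libraries, of which the 4 wild-type ones are described. Reads were processed with Trimmomatic 0.33, featureCounts and DESeq2 on GRCh38.p7 (hg38), per the submitters' processing notes. The aligner, the annotation, the strand setting and the choice of genes are not given in the sources used here. The deposited values are log2 normalized expression values made by the authors, and the transformation is not recorded. Counting depth is therefore unknown, and no interval for counting error is given.

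Genes were matched by Ensembl identifier to GENCODE 29, where 11151 of 11178 had a model. For the per-length level, 2 to the power of the deposited value was divided by the exon-union length and scaled to 1000000 per library. If the transformation was not a plain log2 of normalized counts, low levels are distorted. For comparisons, limma 3.58.1 (R 4.3.3, trended variance) was fitted to all 12 libraries with 1 mean per group, on the 11128 genes with a linear value of at least 10 in at least 4 libraries, with Benjamini-Hochberg adjustment at 0.05. The script was tested on simulated data. GC content and length trends were removed with splines of 5 and 4 degrees of freedom in an alternative fit.

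Genes are named by rule: the 15 highest by deposited value and per length, up to 4 highest of each of 63 lists, every listed receptor tyrosine kinase and glioblastoma driver, the 10 of largest wild-type SD above the median, the 2-fold differences among the 200 highest, and APP. Some genes that meet the rule are not reported here. A few others are named as partners or relatives of these (such as COL1A1, FN1, GAS6, ITGA6, LDHA, SLC2A3, PDK1, ENO3 and the secretases), or as absent members, and were chosen after their values were seen. The members and lists were chosen with earlier results of these data known, and spellings and patterns of several lists were corrected once the table was read. The TATA search, the count of pseudogenes and the count of core families were added after the data were seen. Alternatives are given in the closing section. Tables were made with Python 3.11.15, pandas 2.3.3 and numpy 2.4.6, and plots with matplotlib 3.10.9.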

Additional observations from a re-analysis of the deposited data

Results flagged for a closer look

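In 228 sets of 4 libraries of 1 group, made of the genes named with values, the genes compared with the knockouts and the library measures, 1 library was tested for standing apart from the other 3. The gap to the nearest library, as a share of the range, had to exceed the critical value of Dixon, which chance passes in about 1 in 20 sets, and 16 sets passed. The library was replicate 3 in 12 of the 16.

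At library level, the share of the 10 highest genes was lowest in replicate 3 (6.87% against 7.02% to 7.05%, gap 0.849 of the range), and the number of genes that hold 50% of the linear sum was highest there (805 against 786 to 788, gap 0.895).

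Replicate 3 was the lowest, on the log2 scale, for COL6A1 (12.97 against 13.19 to 13.21, gap 0.904), COL6A2 (12.38 against 12.58 to 12.61, gap 0.886), FGFR3 (8.76 against 8.97 to 8.99, gap 0.903), TGFB1 (12.53 against 12.63 to 12.64, gap 0.908), KRT18 (8.86 against 8.96 to 8.98, gap 0.842), CALR (14.69 against 14.74, gap 0.883), MDH2 (12.87 against 12.92 to 12.93, gap 0.846) and SLC1A5 (11.95 against at most 12.01, gap 0.868). It was the highest for EGFR (12.07 against 11.95 to 11.97, gap 0.884) and TMSB10 (14.60 against 14.56 to 14.57, gap 0.879). The difference of this library between genes of high and low GC content is given in the report, and its part in these gaps was not tested. That difference was itself among the library measures put to the rule and did not pass.

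In the remaining sets other libraries were the highest, on the log2 scale. BRI3 was 11.05 in replicate 2 against 10.25 to 10.38 (gap 0.837). PPM1D was 8.53 in replicate 1 against 8.41 (gap 0.978). MYC was 9.30 in replicate 4 against 9.24 to 9.25 (gap 0.839), and RYK was 10.04 there against 9.92 to 9.94 (gap 0.833).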

How the results depend on the processing

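The number of genes called against CTCF-A KO was 7002, and between 6836 and 7060 with no filter, a stricter filter, quantile normalization, untrended variance, a replicate block or the GC and length trend removed. It was 6144 with only the 8 libraries compared, and 6182 to 8210 when 1 library was left out, the highest without CTCF-A KO replicate 4, where the genes 2-fold higher in wild type rose from 143 to 276. Against CTCF-B KO it was 4389, and 3670 to 5824 when 1 library was left out. It moved to 6601 with only the 8 libraries compared, above the 6144 of CTCF-A KO, and was 5994 with the trend removed. ACTB, lower in wild type than in CTCF-A KO, differed by 0.0 (log2) with quantile normalization and by 0.022 with the trend removed, with or without the replicate block. MT-CO1 was 0.12 higher in wild type than in CTCF-B KO (adjusted p = 0.00657 with limma), and with quantile normalization it turned to -0.0853 (adjusted p = 0.009), past the threshold in the other direction. Under quantile normalization VIM passed the threshold against CTCF-A KO, MT-CO1 lost it there, and ACTB against CTCF-B KO went from 0.33 to 0.0853. The cause was not tested. ACTB, MT-CO1 and VIM were named for their wild-type levels, which these comparisons use again. The calls of GFAP, SCD, APP, NEFL, SOX2 and INSIG1 kept their direction and their side of the threshold in every alternative fit run, but with quantile normalization NEFL against CTCF-A KO went from -0.52 to -0.17 and APP against CTCF-B KO from 0.66 to 0.42. With the 200 highest genes ranked by both knockouts, a choice made after seeing the data, 19 were higher and 128 lower in wild type than in CTCF-A KO, and 66 and 34 than in CTCF-B KO. Of the 100 highest genes per length, 81 were shared with the longest transcript, 100 with the mean of linear values or with filtered genes only, and 99 to 100 when 1 wild-type library was left out. The level moved by more than its SD with the longest transcript for 185 of 204 named genes.

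The deviations of same-numbered libraries correlated at -0.319 to 0.377 for CTCF-A KO and -0.0843 to 0.134 for CTCF-B KO. WT replicate 1 was best matched by replicate 1 of both knockouts (0.377 and 0.134), and the other WT replicates by another number. These correlations cannot show whether the samples were paired. With the replicate block, 7060 and 4414 genes were called, and 6855 and 6020 with the trend removed as well. Since the table gives no depth, how far low levels are limited by counting cannot be stated.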
